A study of Homo sapiens with 4 samples.

Results

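The insulin-like growth factor (IGF) axis was followed through 10 genes, of 19475 gene symbols in the deposited table. They were chosen by name, with earlier results of these data known. The 10 comprised the binding proteins IGFBP2 to IGFBP7, the receptors IGF1R, IGF2R and INSR, and the docking protein IRS2. Each gene was represented by its listed transcript with the highest mean FPKM over the 4 libraries. FPKM is the number of sequenced tags scaled to transcript length and library size. The libraries came from the human ovarian cancer cell line SKOV3, which is an established line. In 2 of them the cells were grown on a tissue culture plate (TCP) and placed at day 0, and in the other 2 they formed tumor spheroids on polymer X, a thin polymer film that coats the plate, and were taken at day 8. Substrate and time thus changed together. The methods of the study keep SKOV3 in fetal bovine serum and its spheroids in serum replacement, whereas the labels give serum replacement for all libraries, so the medium of the TCP cells is uncertain. The methods speak of independent replicates for all experiments, in a larger number than the 2 libraries each group has here, and no source says whether these 2 came from separate cultures. If they did not, the p-values measure only a technical spread.

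IGF1 and IGF2 are secreted peptides that act mainly through IGF1R, a receptor tyrosine kinase closely related to the insulin receptor INSR. The IGFBPs bind these ligands outside the cell with high affinity and limit or prolong their access to the receptor, and several of them also act on cells without a ligand. IGFBP7 is a more distant relative with low affinity for IGFs. IGF2R, which is also the cation-independent mannose 6-phosphate receptor, takes up IGF2 for degradation in the lysosome and does not signal as a kinase. IRS2 is a docking protein that couples IGF1R and INSR to PI3-kinase and AKT.

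The libraries held about 38400000 and 44900000 tags on TCP and 40000000 and 40700000 on polymer X, as read from the smallest steps between values. Of 7 markers of the line, ERBB2, KRT8, KRT18 and PAX8 were at 48.8 FPKM or more in every library. ERBB2 was at 198 and 206 FPKM on TCP and at 913 and 860 on polymer X, and KRT8 at 262 and 269 against 146 and 143. KRT19 was between 0.338 and 0.734 FPKM, EPCAM was at 0.168 and 0.104 on TCP and at 1.39 and 1.32 on polymer X, and MUC16 was at or under 0.021. No leukocyte or endothelial marker exceeded 0.573 FPKM. The leukocyte markers summed to 0.126 and 0.038 FPKM on TCP and to 0.972 and 0.882 on polymer X, where PTPRC was at 0.468 and 0.53. For the endothelial markers the sums were 0.485 and 0.457 against 0.832 and 0.599. PECAM1 was at 0 on TCP and at 0.573 and 0.458 on polymer X, and KDR at 0.476 and 0.438 against 0.215 and 0.11. The 4 fibroblast markers summed to 8.44 and 8.64 FPKM on TCP and to 11.4 and 10.3 on polymer X. Of these, DCN was at 0.025 and 0 FPKM on TCP and at 7.26 and 6.20 on polymer X, COL1A1 was at 8.21 and 8.48 on TCP and at 3.81 and 3.77 on polymer X, and PDGFRA and PDGFRB were at or under 0.291 in every library. The part of these marker shifts in the results was not tested.

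To compare the groups, log2(FPKM + 1) was tested with limma over the 11964 genes that reached an FPKM of 1 in 2 or more libraries. Genes were called where the Benjamini-Hochberg adjusted p was under 0.05 and the log2 fold change was 1 or more in size. All 10 genes were tested, IGFBP4 and IGFBP5 through their polymer X libraries alone. Polymer X spheroids had higher levels of 5 of the 10 genes, IGFBP2, IGFBP3, IGFBP5, IGFBP6 and IGFBP7, and 0 were lower. Over all tested genes, 10.7% were called higher and 9.45% lower. The median log2 fold change was 1.04 for the 10 genes and -0.06 for all tested genes. At an adjusted p under 0.05 without a minimum change, 7 of the 10 genes were higher and 0 lower, against 37.4% and 43.6% of all tested genes. As the 10 genes were chosen with earlier results known, these comparisons describe them and test nothing about the set. Neither the 3 receptors nor IRS2 reached the minimum change in either direction. In bulk RNA, a change in the number of cells that express a gene and a change in its level per cell cannot be told apart.

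**Figure D1:**
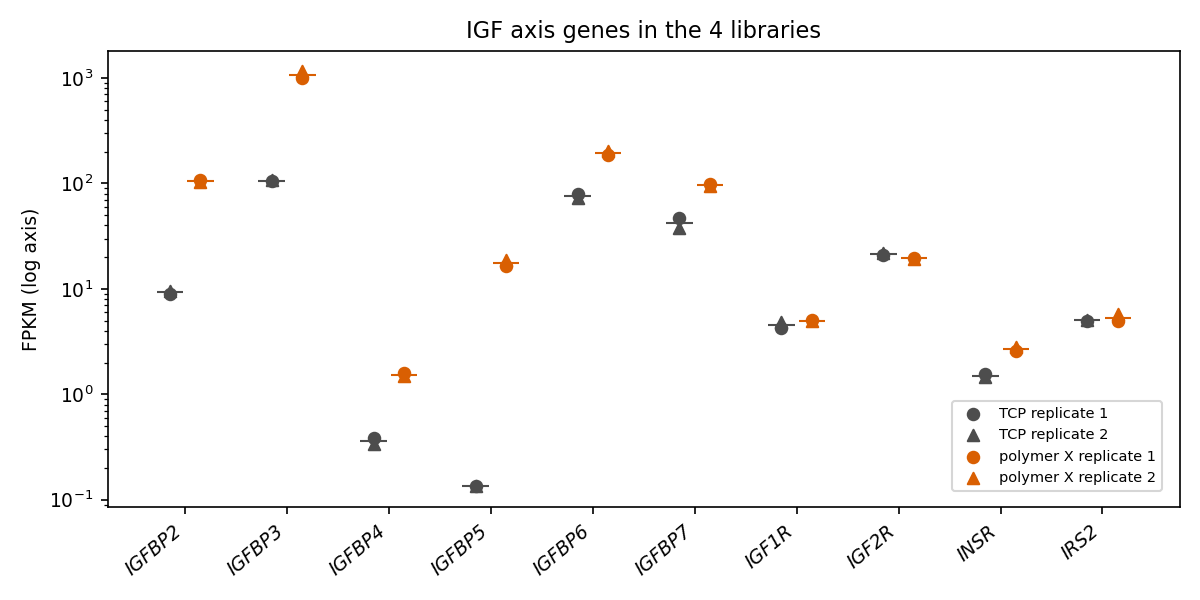
FPKM of the 10 genes (log axis) in each library, with TCP in grey, polymer X in orange, circles for replicate 1, triangles for replicate 2 and a line at the group mean. IGFBP5 moved from the lowest level of the 10 on TCP to 17.6 FPKM on polymer X, and IGFBP3 was the highest in both groups.

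The start regions of IGFBP3 and IGFBP5, which both rose, and of IGF2R, which was not called, are shown to set the sequence before their starts side by side. They are the 250 bases before the gene start on the coding strand in RefSeq (GRCh38.p14), which is another build than the hg19 of the expression values. Capitals mark matches on either strand to any of 5 motifs. These were the GC box GGGCGG, the TATA box with the letters TATAAA, the hypoxia response element with its core ACGTG, a forkhead site for FOXO factors spelled GTAAACA, and a STAT site with the pattern TTCNNNGAA.
IGFBP3, chr7:45921273-45921522, minus strand: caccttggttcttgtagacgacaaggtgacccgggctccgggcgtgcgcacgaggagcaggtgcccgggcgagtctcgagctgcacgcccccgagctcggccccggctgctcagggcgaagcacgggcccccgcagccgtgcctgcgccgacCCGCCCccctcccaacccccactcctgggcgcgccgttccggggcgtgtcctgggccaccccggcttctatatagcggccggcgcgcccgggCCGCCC
IGFBP5, chr2:216695550-216695799, minus strand: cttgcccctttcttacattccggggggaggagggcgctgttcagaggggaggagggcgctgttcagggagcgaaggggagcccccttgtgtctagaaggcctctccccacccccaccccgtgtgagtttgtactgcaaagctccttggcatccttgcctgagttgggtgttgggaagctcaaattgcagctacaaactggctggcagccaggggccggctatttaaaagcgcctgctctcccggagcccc
IGF2R, chr6:159968832-159969081, plus strand: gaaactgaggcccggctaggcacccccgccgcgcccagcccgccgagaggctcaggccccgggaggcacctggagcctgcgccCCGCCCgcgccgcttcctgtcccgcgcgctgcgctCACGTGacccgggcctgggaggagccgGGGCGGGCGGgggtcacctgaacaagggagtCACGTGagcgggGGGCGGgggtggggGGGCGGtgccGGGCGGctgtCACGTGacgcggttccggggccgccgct
In the full window of 300 bases, which adds 50 bases after the start, IGFBP3 had 2 matches to the GC box, IGFBP5 had 0 matches to any of the 5 motifs, and IGF2R had 6 to the GC box and 6 to the hypoxia core. The latter count takes in both strands of each palindromic CACGTG. Variant spellings of a site, such as other forms of the TATA box, were not sought. Of all 35116 promoter windows, 45.0% held the GC box, 21.4% the hypoxia core, 11.5% the TATA box, 7.66% the STAT pattern and 3.42% the forkhead site. GC content of the printed bases was 76.0% for IGFBP3, 61.2% for IGFBP5 and 79.2% for IGF2R. Windows were read for 9 of the 10 genes, without IGFBP7, and IGFBP2 had 3 of them. Among the others, the GC box had 5 matches in IRS2, 4 in INSR, 2 each in IGF1R and IGFBP4, and 1 each in IGFBP6 and in 2 windows of IGFBP2. The hypoxia core had 1 match in IGF1R and 1 in the last window of IGFBP2. IGFBP6 had 1 match to the forkhead site, IGFBP4 had 1 to the TATA box, and the STAT pattern had 0 matches in the windows of these 9 genes.

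IGFBP3 (NM_000598, chromosome 7, 45951844 to 45960871 in hg19, minus strand) encodes the main IGF carrier of the circulation and can also slow growth without binding IGFs. It was at 106 and 107 FPKM in the TCP libraries and at 993 and 1155 in the polymer X libraries. Both polymer X libraries lay far above both TCP libraries, by 9.27 to 10.9 times for any pair. The log2 fold change was 3.32 (standard error, SE, 0.08, adjusted p = 1.9e-09 from limma), the 44th largest rise of the 11964 genes. It rested on 10574 and 12536 tags on TCP and 103615 and 122413 on polymer X. The polymer X libraries differed from each other by more than the TCP libraries did, with an SD of 114 against 1.02 FPKM (n = 2 each).

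IGFBP2 (NM_001313990, chromosome 2, 217524341 to 217529158, plus strand) carries IGFs and has an RGD motif through which it binds integrin alpha 5 beta 1. It lay at 8.89 and 9.60 FPKM on TCP and at 108 and 104 on polymer X, a rise with a log2 fold change of 3.39 (SE 0.06, adjusted p = 4.5e-10 from limma). The row used is the shortest of 4 listed transcripts, which share tags. Over the 4, the log2 fold change was between 3.35 and 3.40. The FPKM level of IGFBP2, and so its place and share among the genes below, rests on the row used.

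IGFBP5 (NM_000599, chromosome 2, 217536828 to 217560272, minus strand) binds matrix as well as IGFs. It was at 0.134 and 0.136 FPKM on TCP and at 16.5 and 18.8 on polymer X. These values stood for 32 and 38 tags against 4118 and 4758. The ratio of the group means was 131, the largest of the 10 genes, and for any pair of libraries it was between 121 and 140.0. The log2(FPKM + 1) scale understates the change of a gene this low on TCP. On it, the log2 fold change was 4.03 (SE 0.08, adjusted p = 9.2e-10 from limma), and it was 6.23 with a pseudocount of 0.1. IGFBP5 ranked 23rd among all tested genes by this rise.

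IGFBP6 and IGFBP7 rose less. IGFBP6 (NM_002178, chromosome 12, 53491436 to 53496128, plus strand), which prefers IGF2 to IGF1, was at 79.1 and 73.6 FPKM on TCP and at 187 and 204 on polymer X, with a log2 fold change of 1.34 (SE 0.07, adjusted p = 1.0e-07 from limma). IGFBP7 (NM_001553, chromosome 4, 57897237 to 57976551, minus strand), a secreted protein found in basement membranes, was at 46.6 and 37.6 FPKM on TCP and at 97.9 and 94.1 on polymer X. Its log2 fold change was 1.18 (SE 0.09, adjusted p = 1.7e-06 from limma). For both genes the groups did not overlap, as for 90.4% of all tested genes. IGFBP7 shares 92 bases at its end with POLR2B on the opposite strand, and the counting did not use strand.

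IGFBP4 (NM_001552, chromosome 17, 38599676 to 38613982, plus strand), regarded as an inhibitor of IGF action, stayed low. It was at 0.385 and 0.339 FPKM on TCP, from 33 and 34 tags, and at 1.58 and 1.50 on polymer X, from 141 and 136 tags. The ratio of the means was 4.25, above those of IGFBP6 (2.56) and IGFBP7 (2.28). The log2 fold change of 0.90 (SE 0.08, adjusted p = 6.7e-06 from limma) was under the minimum of 1, which it passed with a pseudocount of 0.1 (1.83). Under quantile normalization it was 0.38.

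**Figure D2:**
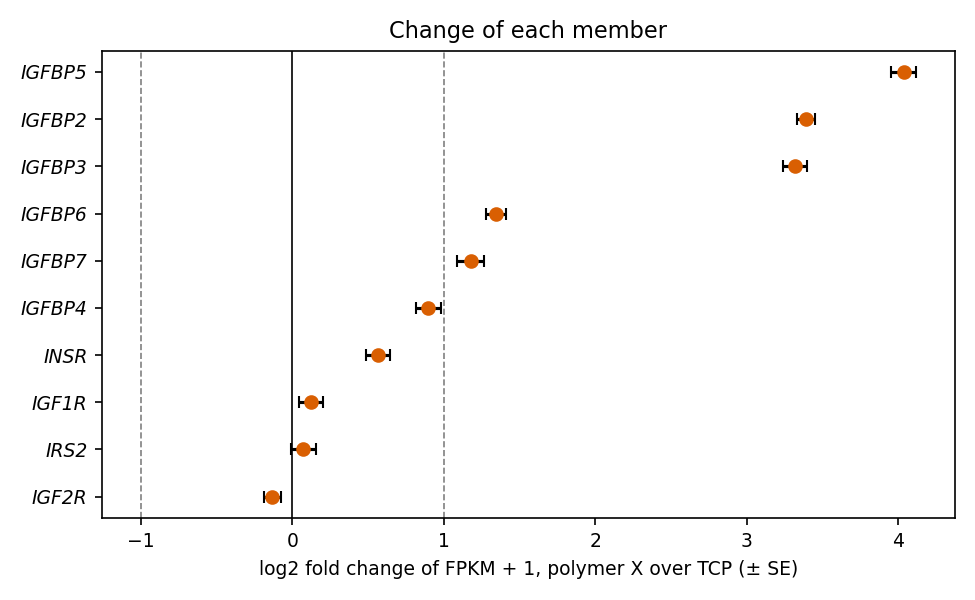
Log2 fold change of FPKM + 1 between polymer X and TCP for the 10 genes, with the standard error from limma as bars and dashed lines at the minimum of 1 in either direction. The points of 5 IGFBP genes lie above the minimum, between 1.18 and 4.03, and those of the receptors and IRS2 lie between -0.13 and 0.57.

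Summed over IGFBP2 to IGFBP7, the level per length was 241 and 228 FPKM in the TCP libraries and 1404 and 1577 in the polymer X libraries, a ratio of means of 6.35. The groups were fully separate, but the exact permutation test gave p = 0.333 (two-sided), the smallest value that 2 libraries against 2 allow. The make-up of the sum also differed. IGFBP3 made up 43.9% and 46.9% of it on TCP and 70.7% and 73.2% on polymer X. The shares of IGFBP6 were 32.9% and 32.2% on TCP and 13.3% and 12.9% on polymer X, although its own level was higher there. IGFBP7 went from 19.3% and 16.5% to 6.97% and 5.97%, and IGFBP2 from 3.69% and 4.20% to 7.72% and 6.60%. IGFBP5 stood at 0.0557% and 0.0595% on TCP and at 1.18% and 1.19% on polymer X.

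**Figure D3:**
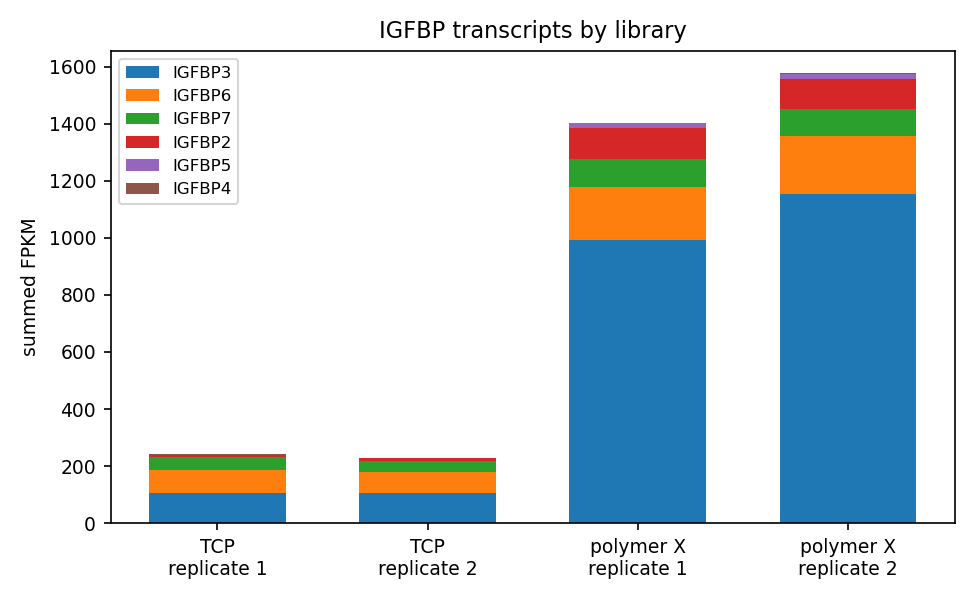
Summed FPKM of the 6 IGFBP genes in each library, stacked by gene from a zero baseline. The polymer X bars reach 1404 and 1577 FPKM against 241 and 228 for TCP, and IGFBP3 forms the largest segment in all 4 bars.

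The receptors showed much smaller differences. IGF1R (NM_001291858, chromosome 15, 99191768 to 99507759, plus strand) was at 4.24 and 4.81 FPKM on TCP and at 5.10 and 4.92 on polymer X. The polymer X values lay just above the higher TCP value, with a log2 fold change of 0.12 (SE 0.08, adjusted p = 0.164 from limma). This value was 0.05 without TCP replicate 1, 0.20 without TCP replicate 2 and 0.03 under quantile normalization. INSR (NM_001079817, chromosome 19, 7112266 to 7294313, minus strand) was at 1.56 and 1.46 FPKM on TCP and at 2.60 and 2.84 on polymer X, a ratio of means of 1.80. Its log2 fold change of 0.57 (SE 0.08, adjusted p = 1.2e-04 from limma) was under the minimum, and it was 0.29 under quantile normalization. The groups did not overlap, but those of most tested genes did not either.

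The ratio of IGF1R to INSR within a library was 2.72 and 3.30 on TCP and 1.96 and 1.74 on polymer X, so IGF1R stayed the higher of the pair in all 4 libraries. The log2 ratio was lower on polymer X by a difference of -0.70, with replicate SDs of 0.20 on TCP and 0.13 on polymer X (exact permutation p = 0.333, two-sided, the smallest possible).

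IGF2R (NM_000876, chromosome 6, 160390131 to 160532534, plus strand) was the most abundant of the 3 receptors, at 21.0 and 21.8 FPKM on TCP and 19.6 and 19.4 on polymer X. Its log2 fold change was -0.13 (SE 0.06, adjusted p = 0.054 from limma) and changed sign under quantile normalization, to 0.071. The ratio of IGF1R to IGF2R was 0.202 and 0.220 on TCP and 0.260 and 0.254 on polymer X, a log2 difference of 0.29 (exact permutation p = 0.333, two-sided).

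IRS2 (NM_003749, chromosome 13, 110406184 to 110438914, minus strand) was the 1 gene of the 10 whose groups overlapped. The groups of 90.4% of all tested genes did not overlap. IRS2 was at 5.00 and 5.05 FPKM on TCP and at 4.94 and 5.76 on polymer X, with a log2 fold change of 0.07 (SE 0.08, adjusted p = 0.413 from limma). The value was -0.02 without polymer X replicate 2.

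Ordered by level on TCP, the genes ran IGFBP3, IGFBP6, IGFBP7, IGF2R, IGFBP2, IRS2, IGF1R, INSR, IGFBP4 and IGFBP5, and the libraries of no neighbouring pair overlapped. On polymer X, IGFBP2 (106 FPKM) moved up past IGFBP7 (96.0) and IGF2R (19.5), and IGFBP5 (17.6) moved from the lowest place to the place after IGF2R. There, IRS2 and IGF1R were neighbours whose libraries overlapped, and all other neighbours were separate.

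Some of these genes lie side by side. IGFBP2 and IGFBP5 face each other tail to tail on chromosome 2 of hg19, with 7669 bases between their ends. IGFBP1 and IGFBP3 do so on chromosome 7, with 18576 bases between them. IGFBP1, the binding protein that insulin represses in liver, was at 1.30 and 1.48 FPKM on TCP and at 4.27 and 4.23 on polymer X, with a log2 fold change of 1.14 (adjusted p = 8.7e-07 from limma). Both genes of each pair were called higher, as were 10.7% of all tested genes. IGFBP1 was at 0.92 under quantile normalization, below the minimum change. IGFBPL1, an IGFBP-like secreted protein, was lower, from 2.63 and 2.64 to 0.858 and 0.699 FPKM (log2 fold change -1.03, adjusted p = 2.6e-06 from limma), and it was at -0.97 without polymer X replicate 2. It passed the filter through its TCP libraries alone.

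Transcripts of the ligands were scarce in the cells. Ligand supplied by the medium was not measured. INS was listed at 0 in all libraries and IGF1 at 0.072 FPKM or less, from at most 20 tags. IGF2 was at 0.069 and 0.084 FPKM on TCP, from 12 and 17 tags, and at 0.847 and 1.11 on polymer X, from 153 and 203 tags. The ratio of the IGF2 means was 12.8, and the groups did not overlap, as for 90.4% of all tested genes. Since 1 library alone reached an FPKM of 1, IGF2 was not tested. Without that filter its log2 fold change was 0.87 (adjusted p = 3.8e-04 from limma). With the FPKM of its 5 overlapping transcripts summed it was called higher, at 2.04 (adjusted p = 3.1e-06 from limma). That sum counts a tag once for each transcript that shares it, which raises low values against the filter and the pseudocount. Each transcript alone was between 0.80 and 0.87.

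Beyond the 10 genes, 78 further genes of the pathway were listed by role, also with earlier results known, and 61 of them were tested. Of these, 14 were called higher and 4 lower, against 10.7% and 9.45% of all tested genes, and their median log2 fold change was 0.13. Without polymer X replicate 2, 2 were called lower in place of 4. Under quantile normalization, 5 of the 18 were under the minimum, IGFBP1, SH2B2 (0.78), PIK3R3 (0.96), FOXO1 (0.93) and ITGB1 (-0.97). There, GNPTG (1.00) and TMEM219 (1.06), the latter listed as a cell surface partner of IGFBPs, joined the calls, which numbered 15.

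Of the 7 genes for IGFBP proteases and their inhibitors, only 2 passed the expression filter and were tested, and both were called higher. The shares over all tested genes were 10.7% higher and 9.45% lower. HTRA1, a secreted serine protease that cleaves IGFBPs among other substrates, went from 8.62 and 9.07 FPKM on TCP to 129 and 125 on polymer X, with a log2 fold change of 3.70 (SE 0.06, adjusted p = 2.2e-10 from limma). STC1, a stanniocalcin that can inhibit the protease PAPPA, went from 8.09 and 8.41 to 113 and 117 FPKM, a log2 fold change of 3.65 (SE 0.06, adjusted p = 2.3e-10 from limma). The IGFBP4 protease PAPPA was at or under 0.137 FPKM in every library, as was PAPPA2.

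Among 5 cell surface partners of IGFBPs, 2 were called higher and 1 lower, against 10.7% and 9.45% of all tested genes. ITGA5, the integrin alpha 5 chain of the fibronectin receptor, was at 27.8 and 28.5 FPKM on TCP and at 79.8 and 84.6 on polymer X (log2 fold change 1.51, adjusted p = 1.8e-08 from limma). Its partner chain ITGB1 was lower, from 331 and 329 to 136 and 125 FPKM (log2 fold change -1.33, adjusted p = 7.7e-08 from limma). LRP1, an endocytic receptor that binds IGFBP3, rose from 6.55 and 6.85 to 33.8 and 39.5 FPKM, a log2 fold change of 2.29 (adjusted p = 1.1e-08 from limma).

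Downstream of the receptors, the counts of called genes are given beside the 10.7% higher and 9.45% lower over all tested genes. Of 6 tested adaptors, SH2B2 was higher (1.17 on the log2 scale), which passed the filter through polymer X alone, from 0.504 and 0.710 FPKM to 2.83 and 2.41, and of 5 receptor inhibitors, SOCS3 was higher (1.05). In the list of 24 tested PI3K, AKT and mTOR genes, the regulatory subunit PIK3R3 rose (1.17) and the kinase MTOR fell, from 12.9 and 13.4 FPKM to 6.10 and 5.29 (log2 fold change -1.08). MTOR was at -0.99 without polymer X replicate 2. The median of this list was -0.27. None of the 2 tested IGF2 mRNA-binding proteins was called.

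FOXO factors are transcription factors that AKT keeps out of the nucleus. FOXO1 was at 0.904 and 0.819 FPKM on TCP and at 3.51 and 3.32 on polymer X (log2 fold change 1.25, adjusted p = 5.4e-07 from limma), and FOXO4 at 1.94 and 1.89 against 5.72 and 6.15 (log2 fold change 1.25, adjusted p = 3.4e-07 from limma). FOXO1 passed the filter on low values through its polymer X libraries alone. FOXO3 was not called. Of 8 tested genes listed as FOXO targets, 4 were higher and 1 lower, against 10.7% and 9.45% of all tested genes. TXNIP, a thioredoxin inhibitor, rose by 2.97 on the log2 scale, CCNG2, a cyclin of resting cells, by 1.85, the transcriptional repressor BCL6 by 1.39 and the coactivator-binding protein CITED2 by 1.13. GADD45A, a growth arrest gene, fell from 251 and 242 to 21.5 and 20.7 FPKM, a log2 fold change of -3.48.

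**Figure D4:**
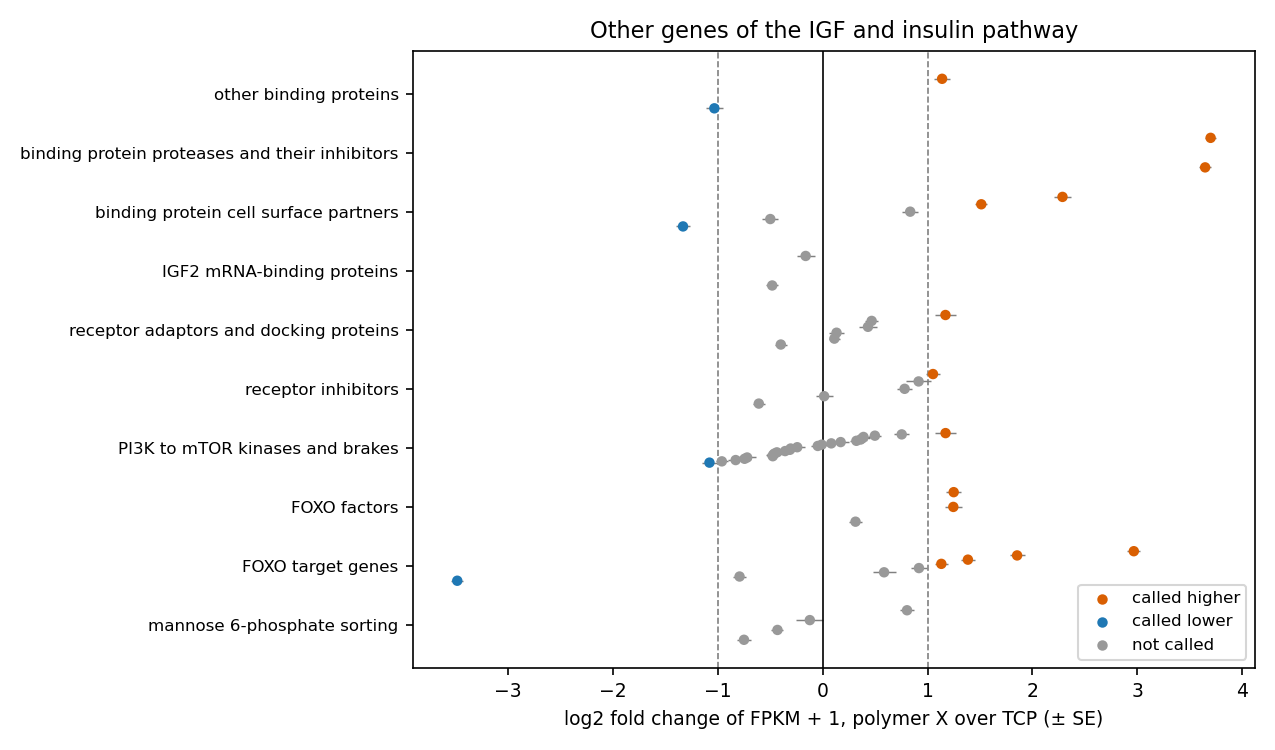
Log2 fold change of FPKM + 1 between polymer X and TCP for the 61 tested pathway genes, grouped by role, with standard errors from limma as bars. Orange points were called higher (14 genes), blue points lower (4 genes) and grey points were not called, and dashed lines mark the minimum of 1 in either direction.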

How the data were processed

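RNA-seq of SKOV3 cells was compared between 2 TCP and 2 polymer X libraries. Per the file headers, the authors deposited FPKM values from HOMER (analyzeRepeats, hg19), counted on exons of both strands and given for each of 50078 RefSeq transcripts with 3 decimals. The submitters' processing notes also name STAR 2.4.0 and DESeq. Read trimming and the HOMER version are not given in the sources used here. Values times length fell on whole multiples of 1 step per library (100.0% of low values within 0.1 of a whole tag), which gave the depths. Whether tags were mates of a pair is not stated, and tag counts cover counting error only.

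The transcript with the highest mean FPKM stood for each symbol, and 10500 symbols had several. Differences in log2(FPKM + 1) were tested by limma 3.58.1 (R 4.3.3, mean-variance trend, no block) for genes that reached an FPKM of 1 in 2 or more libraries. Alternatives were another pseudocount, filter, scaling, fold minimum or variance model, the replicate block, summed transcripts and each library left out. The procedure was tested on simulated data. Single values per library were compared by exact permutation (scipy 1.17.1). All 10 genes, the IGF and insulin ligands and the called genes of each pathway list (at most 4 in each direction) are named, and IGFBPL1, IGFBP1 and others fall under this rule. PAPPA, PAPPA2, FOXO3, TMEM219, M6PR, GNPTAB, GNPTG and NAGPA were named after their values were seen, as were marker genes. For the gene with the largest rise and the gene with the largest fall, the 3 genes nearest in log2(FPKM + 1) over the 4 libraries were also named. The members and lists were chosen with earlier results of these data known. Promoter sequences came from RefSeq (GRCh38.p14), where 9 of the 10 genes had an entry (all except IGFBP7) and IGFBP2 had 3.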

Additional observations from a re-analysis of the deposited data

How the results depend on the processing

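The number of IGF axis genes called higher was 5 under every alternative with a minimum log2 fold change of 1 except the pseudocount of 0.1, where IGFBP4 joined them. The mean FPKM minimum of 5 left IGFBP4, IGF1R and INSR untested. Without a fold minimum the number was 7, with a minimum of 2 it was 3, and 0 were lower throughout. IGF2R changed sign under quantile normalization (0.071), as did IRS2 there (-0.0012) and without polymer X replicate 2 (-0.020, with up to 0.17 when another library was left out). The cause was not tested. With the FPKM of all transcripts summed, the log2 difference of the IGFBP sum was 2.86 against 2.67. Summing counts shared tags more than once for IGFBP2 (4 transcripts), IGFBP3 and IGFBP7 (2 each). IGFBP4, IGFBP5 and IGFBP6 have 1 transcript each, so the genes weigh differently in the 2.86. Of the pathway genes, 8 were called higher under the mean FPKM minimum of 5, which leaves fewer genes to test. Without a fold minimum 29 were higher and 23 lower, and at a minimum of 2 there were 4 and 1. For all genes, 702 were higher under the mean FPKM minimum of 5 (42.2% of the calls, against 53.2%), 4477 and 5212 were higher and lower without a minimum, and 281 and 150 at a minimum of 2. With each library left out in turn, pathway genes called lower were 2 to 4 and higher 14 to 15, the IGFBP sum differed by 2.58 to 2.75, IGF1R to INSR by -0.84 to -0.56 and IGF1R to IGF2R by 0.23 to 0.35 (log2). In these fits the lone library of a group is assumed to vary like the others. With the replicate number as a replicate block, 5 members were called higher and 0 lower, 1285 genes in all were higher and 1131 lower, and no call changed among the members. Deviations of same-numbered libraries correlated at 0.093, so no pairing was assumed. Depth limits IGF1, IGF2, IGFBP4 and, on TCP, IGFBP5.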

Other observations

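Genes of mannose 6-phosphate sorting, the lysosomal route that IGF2R serves, were listed because of its second role. All 4 were tested (M6PR, GNPTAB, GNPTG and NAGPA) and 0 were called, against 10.7% higher and 9.45% lower over all tested genes. Their median log2 fold change was -0.28. GNPTG was at 0.80 (adjusted p = 2.8e-06 from limma) and passed the minimum under quantile normalization, at 1.00. GNPTAB was at -0.75 (adjusted p = 3.7e-06 from limma).

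By the distance of log2(FPKM + 1) over the 4 libraries, the genes nearest to IGFBP5 were CDK18 (distance 0.190), DDIT4L (0.248) and PTGDS (0.258). CDK18 was at 0.169 and 0.231 FPKM on TCP and at 14.8 and 19.0 on polymer X. The genes nearest to IGF2R were TIAL1 (0.0523), U2SURP (0.0726) and AKIRIN2 (0.0938). With 4 libraries in 2 groups, such nearness holds little beyond a like level in each group.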
